A study of Mus musculus with 14 samples.

Results

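The peaks described here are those of 2 deposited lists from CUT&RUN against retinoic acid receptor alpha (RARα): 323 peaks from cells given AM580 and 286 from cells given DMSO, 609 of the 1529 peaks in the 5 lists of the series. They were chosen by treatment alone, and a peak was called shared where it overlapped a peak of the other list by at least 1 bp. The cells were 266-6, a mouse pancreatic acinar line. Stripped medium was given for 24 h before AM580 or the vehicle DMSO, which also stayed on for 24 h, and libraries had 9 amplification cycles. The labels name 2 AM580 and 3 DMSO samples, but the samples of a treatment name a single list between them. Each treatment is therefore 1 list with no replicate list, and the sources used here give no dose.

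RARα is a ligand-controlled transcription factor that pairs with a retinoid X receptor and sits on direct repeats of a short half-site. Without ligand the pair is known to hold co-repressors at its sites, and an agonist replaces these with co-activators, so that a site can be occupied in either state. AM580 is a synthetic retinoid selective for RARα. Retinoic acid signalling shapes the developing pancreas, and 266-6 cells derive from an acinar tumour. In CUT&RUN an antibody-tethered nuclease cuts out the DNA beside the bound protein.

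Peaks reached the start-site window of a gene in 2 places of the table used, and both places had a peak in both lists. Their start-site windows are shown because they are the places where part of a peak of these lists could be read against sequence. The windows run from 250 bases before to 50 after the start and come from RefSeq on GRCm38.p6, on the plus strand. The first is Gm40237, a long non-coding RNA gene (chr4:118547156-118547455), and the second Gm40369, a predicted protein-coding gene (chr6:47652651-47652950). Capitals mark AGGTCA, the consensus half-site of the receptor.

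Gm40237: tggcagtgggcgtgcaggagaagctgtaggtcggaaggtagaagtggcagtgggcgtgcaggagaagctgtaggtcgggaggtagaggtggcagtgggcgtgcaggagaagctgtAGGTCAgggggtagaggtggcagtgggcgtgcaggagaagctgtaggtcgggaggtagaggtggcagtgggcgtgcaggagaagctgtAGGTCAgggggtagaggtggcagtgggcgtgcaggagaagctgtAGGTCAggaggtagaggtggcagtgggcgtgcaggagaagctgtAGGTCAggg
Gm40369: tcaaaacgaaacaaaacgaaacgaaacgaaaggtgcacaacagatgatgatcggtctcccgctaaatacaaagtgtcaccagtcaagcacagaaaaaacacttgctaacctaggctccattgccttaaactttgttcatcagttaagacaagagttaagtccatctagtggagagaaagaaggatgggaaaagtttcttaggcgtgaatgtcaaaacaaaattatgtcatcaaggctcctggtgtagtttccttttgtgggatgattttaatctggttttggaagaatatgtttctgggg

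The Gm40237 window held AGGTCA 4 times, all on the same strand, and the Gm40369 window 0 times on either strand. The Gm40237 copies belong to a tandem repeat: shifted by 44 bases, 96.1% of the 256 positions compared were identical. Of 32851 start-site windows in the table, 16.3% held AGGTCA on at least 1 strand. Neither window held 2 copies of AGGTCA with 1, 2 or 5 bases between (direct repeats DR1, DR2 and DR5), nor relaxed forms that also allow G as the first and T as the third base of a half-site. Those relaxed forms were in 0.222%, 0.268% and 0.0974% of all windows. These are matches of letters, and no more of the 2 peaks' sequence was read. Of the 300 bases, the Gm40237 peak covered 218 with AM580 and 231 with DMSO. The Gm40369 peak covered only 25 and 86. All of these summits lay outside the windows, so the counts describe the windows and not the peaks.

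The Gm40237 peak was broad in both lists. With AM580 it ran from 118547238 to 118548704 on chromosome 4, with a fold of 14.5 over the local background and a summit 542 bp past the start. With DMSO it ran from 118547225 to 118548656, with a fold of 15.8 and a summit 572 bp past the start. At Gm40369 the AM580 peak had a fold of 9.45 and the DMSO peak 12.0, and the summits lay 158 and 159 bp past the start. A fold is the authors' value, measured against its own list's background, so the pairs are set side by side and not compared.

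Of the 323 AM580 peaks, 248 met a DMSO peak (76.8%, 95% Wilson interval 71.9 to 81.1) and 75 did not, a background of 23.2% unshared. In the other direction 252 of 286 DMSO peaks met an AM580 peak (88.1%, 83.8 to 91.4) and 34, or 11.9%, did not. The intervals cover counting error only and say nothing of how a second AM580 or DMSO list would fall. For scale, 90.7% of AM580 peaks met a peak of the CD3254 list, 64.7% of the AM+CD list and 52.6% of the 9-cis retinoic acid list, which hold 493, 227 and 200 peaks.

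Depth was read only as the lowest background recovered at the listed peaks, and no read counts were used. It was 0.985 fragments per base in the AM580 call and 1.32 in the DMSO call. Both lists are part of a longer call, since the numbers in their peak names have gaps. The AM580 list kept 323 of at least 734 numbers (44.0%) and the DMSO list 286 of at least 453 (63.1%). At 18 of the 75 AM580 places no DMSO number is missing, so the DMSO call itself had no peak there. If each missing number stood for 1 place only, there would be room for a removed peak at no more than 52. No fewer than 23 would then be without one. For the 34 unshared DMSO peaks the missing AM580 numbers leave room at 15, so at least 19 had no peak in the AM580 call.

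Summits of shared peaks were mostly close together, though overlap itself limits how far apart they can lie. The overlaps formed 242 pairs in which 1 peak of each list met just 1 of the other, and the median distance between their summits was 14 bp. In 196 pairs (81.0%) the summits were within 50 bp, and in 14 they were the same base. Another 16 pairs had summits over 200 bp apart, up to 1173 bp. The overlaps that were not one-to-one are left out here, and their summits were up to 3990 bp apart. Among the 99 pairs at isolated positions the median was 21 bp, and among the 143 in the other classes of position it was 10 bp. The histogram of summit distances shows this.

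**Figure D1:**
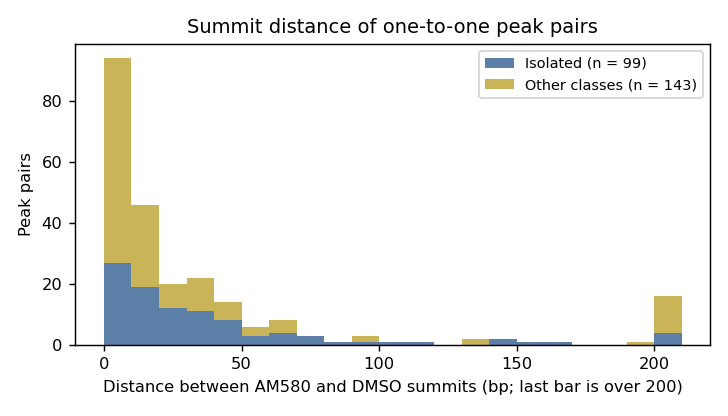
Number of peak pairs (vertical axis) by distance in bp between the AM580 and DMSO summits (horizontal axis, 10 bp bars, the last holding all distances over 200 bp), for the 242 one-to-one pairs. Most pairs, 196, are within 50 bp, in isolated positions (blue) and in the other classes (yellow) alike.

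Whether a peak was shared went with its rank in its own list. Ranked by −log10 q, the 111 highest AM580 peaks all met a DMSO peak, and the first that did not was ranked 112. By quartile of −log10 q, 81 of 81 AM580 peaks were shared in the highest quartile (100%, 95.5 to 100) and 78 of 80 in the next (97.5%). In the second lowest, from 9.47 to 29.9, 59 of 81 were (72.8%, 62.3 to 81.3), and in the lowest, from 1.56 to 9.42, 30 of 81 (37.0%, 27.3 to 47.9). The 2 lower quartiles thus held 73 of the 75 unshared AM580 peaks.

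The DMSO list had most of its unshared peaks at low rank too, with a few strong exceptions. Its lowest quartile, from 1.87 to 17.9, had 47 of 72 peaks shared (65.3%, 53.8 to 75.2), and the next had 65 of 71 (91.5%). Of the 34 unshared, 31 were in these 2 quartiles. The other 3 were at −log10 q of 469.5, 231.5 and 80.9, and the strongest was ranked 25. The quartile limits belong to each list and were not set against each other.

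**Figure D2:**
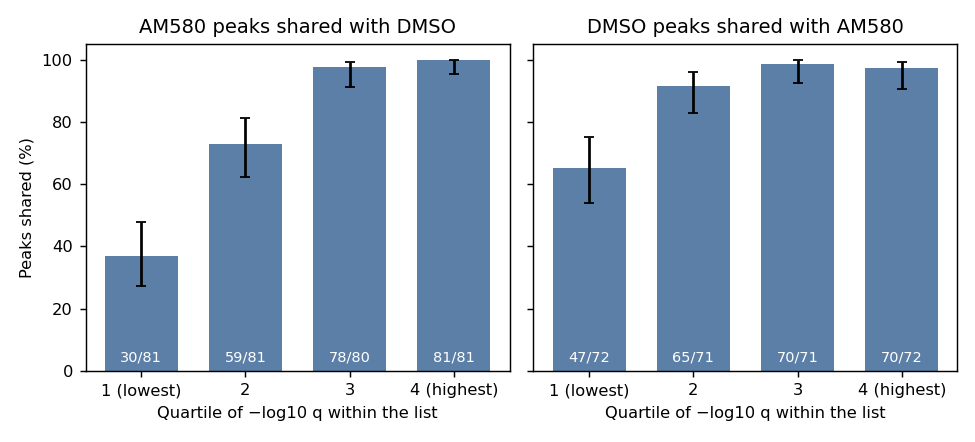
Percent of peaks that meet a peak of the other list (bars, with 95% Wilson intervals) by quartile of −log10 q within each list, AM580 on the left and DMSO on the right. Shared and total counts stand in the bars, and the AM580 share falls from 81/81 in the highest quartile to 30/81 in the lowest.

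Unshared AM580 peaks were small. Their median summit pileup, the number of fragments stacked at the summit, was 17 (8 to 198), against 88 (10 to 51714) for shared ones. Their median width was 326 bp against 451.5 bp, and their median fold 6.05 (1.56 to 20.2) against 8.50 (1.71 to 42.9). In the DMSO list the unshared pileups had a median of 22 (9 to 2930), against 108.5 for shared ones. The unshared and shared ranges overlapped on every one of these measures. The plot of fold against pileup shows most unshared peaks in the lower left of each list, with a few exceptions at higher fold or pileup.

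**Figure D3:**
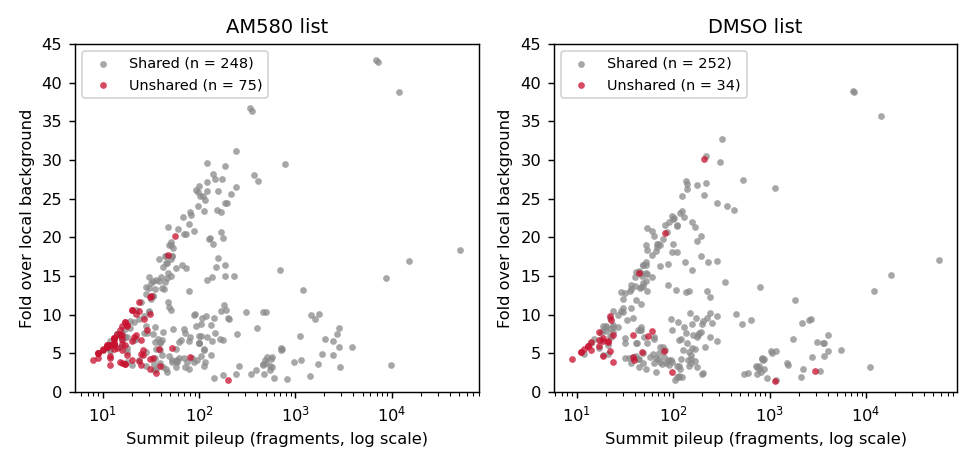
Fold over the local background (vertical axis) against the number of fragments at the summit (horizontal axis, log scale) for each AM580 peak (left) and DMSO peak (right). Unshared peaks (red, 75 and 34) lie mostly at low pileup, with medians of 17 and 22 fragments.

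The unshared counts, 75 and 34, go with the lengths of the lists. Since 242 of the 253 overlaps were one-to-one, the longer list must hold more unshared peaks by about as many as it is longer. The difference between 75 and 34 therefore restates the difference in length. Gain or loss of sites with AM580 was not tested.

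By position the AM580 peaks fell into 5 classes. Isolated positions on the main chromosomes held 140 (43.3%), unplaced contigs and the mitochondrial genome 71, and dense clusters 57. Another 29 lay beside the chromosome starts, before 3.2 Mb, where mouse chromosomes carry satellite DNA, and 26 in fixed high-signal windows of repeat sequence. Isolated AM580 peaks were shared in 99 of 140 cases (70.7%, 62.7 to 77.6), and isolated DMSO peaks in 99 of 113 (87.6%, 80.3 to 92.5). In the clusters 36 of 57 AM580 peaks were shared (63.2%, 50.2 to 74.5). On contigs and the mitochondrial genome 63 of 71 were (88.7%, 79.3 to 94.2), and in the high-signal windows 26 of 26.

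**Figure D4:**
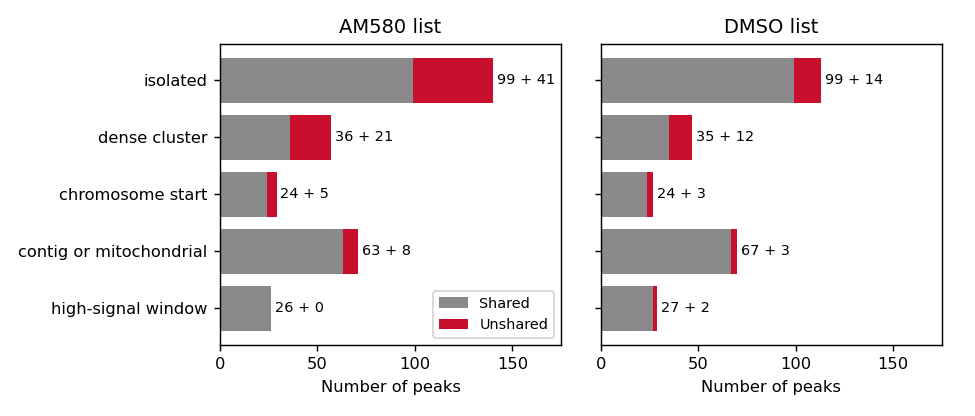
Number of peaks (horizontal axis) in each class of position for the AM580 list (left) and the DMSO list (right), shared in grey and unshared in red, with both counts printed as shared + unshared. Isolated positions hold the most unshared peaks in each list, 41 with AM580 and 14 with DMSO.

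Of the 41 isolated AM580 peaks without a DMSO partner, 36 were over 1 Mb from any DMSO peak, and the median gap of the 41 was 8.96 Mb. For scale, the median distance from a protein-coding gene to the nearest DMSO summit was 8.22 Mb. In 15 of the 41 peaks the summit fell in the span of a protein-coding gene (36.6%, 23.6 to 51.9). In 13 it lay outside but within 50 kb, and in 13 no such gene was that near. Isolated shared AM580 peaks were in a span in 38 of 99 cases (38.4%, 29.4 to 48.2), and the intervals overlap. The gene table gives spans only, so whether a summit was exonic or intronic was not determined.

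The strongest unshared AM580 peak stood on chromosome 1 (157877250 to 157877493), with a fold of 20.2, a −log10 q of 57.8 and a pileup of 56 fragments. The nearest protein-coding gene, Sec16b of the secretory pathway, was 309 kb away. The third strongest lay on chromosome 4 (64497857 to 64498244, fold 12.4), 451 kb from Tnc, the extracellular matrix gene of tenascin C. The fifth was at the start of chromosome 17 (3030469 to 3030902, fold 4.53, pileup 81), just 326 bp from a DMSO peak.

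Among isolated peaks with a gene nearby, transporter and channel genes came first and seventh. Slc22a29, a gene of the organic anion transporter family, held one in its span (chromosome 19, 8252234 to 8252549) with a fold of 17.7 and 47 fragments. Kcnh6, a voltage-gated potassium channel gene, held another (chromosome 11, 106032055 to 106032378) with a fold of 9.07 and 17 fragments. Later in the order came Slc30a4, a zinc transporter gene, with 13 fragments, and Slc25a33, a mitochondrial carrier gene 36.3 kb from the summit, with 12.

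Regulators of transcription were also among the neighbours. The summit in Gtf2ird1, a transcription factor gene, stood 77.8 kb inside the gene from its start (chromosome 5, 134378867 to 134379201, fold 10.5, 24 fragments). Sp3, which binds GC-rich promoters, lay 32.4 kb from a peak on its upstream side (chromosome 2, 73012735 to 73012998, fold 10.1, 22 fragments). Of the 20 named peaks, 3 had a Zfp zinc finger gene nearby: Zfp629 at 3300 bp (fold 10.6, 20 fragments), Zfp958 at 24.1 kb (9.07, 17) and Zfp945 at 10.4 kb (5.39, 16). Satb1, a chromatin organiser, was 36.0 kb away (fold 7.05, 13 fragments). The Zfp945 peak stood 1001 bp from a DMSO peak, and that DMSO peak met another, stronger AM580 peak (−log10 q 41.6 in AM580). The share of transporter, regulator or zinc finger genes among all genes was not computed, so these groupings only describe the named peaks.

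The other named peaks lay in or near genes of varied kinds. Epm2a, which encodes a glycogen phosphatase, was 32.5 kb from a peak of fold 12.3 (chromosome 10, 11491975 to 11492281, 31 fragments). Tbca, a tubulin folding gene, was 14.3 kb from one of fold 10.6. Tmem67, of the primary cilium (chromosome 4, 12048581 to 12049003, fold 8.60), and Eppk1, which encodes the cytoskeletal linker epiplakin (chromosome 15, 76103648 to 76104126, 7.32), held peaks in their spans. So did Cntnap5b (8.65), Arhgap21 (7.56), Cldn14, a tight junction claudin (6.87), and the pseudokinase gene Peak1 (8.56). Rhou was 36.5 kb away (8.06) and Btbd16 8.64 kb (6.34). Each rested on 13 to 22 fragments at the summit, apart from Epm2a.

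Presence in the remaining lists differed from peak to peak. The peaks at Slc22a29, Epm2a, Sp3, Tbca, Zfp629, Tmem67, Eppk1, Cldn14 and Slc30a4 met a CD3254 peak, and that at Gtf2ird1 met one of CD3254 and one of AM+CD. Those at Kcnh6, Zfp958, Cntnap5b, Rhou, Arhgap21, Btbd16, Zfp945 and Slc25a33 were in no other list. That at Peak1 met one of AM+CD and one of 9-cis retinoic acid, and that at Satb1 one of 9-cis retinoic acid. In all, 19 of the 41 isolated unshared AM580 peaks had no partner in the CD3254, AM+CD or 9-cis retinoic acid list. Over all AM580 peaks 26 of 323 (8.05%) had none, and over all isolated ones 19 of 140 (13.6%), so all 19 of these were unshared with DMSO too. Any statement that such a peak is gained over DMSO rests on 1 DMSO list, which the treatments share as control.

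The 34 DMSO peaks with no AM580 partner included 14 isolated ones, 5 in a protein-coding span and 6 within 50 kb of one. Dpy19l2, a gene of sperm head formation, was 14.9 kb from the highest of these (chromosome 9, 24542015 to 24542293), with a fold of 30.2 and 208 fragments. Sos2, a Ras exchange factor gene, held one of fold 20.5 with 82 fragments (chromosome 12, 69654064 to 69654343), 45.3 kb from the nearest AM580 peak. C1qbp, a mitochondrial matrix protein gene, held one of fold 15.4 with 44 fragments, 3.50 kb inside the gene from its start (chromosome 11, 70979398 to 70979652). These pileups were above that of most unshared peaks. Each of the 3 peaks met a CD3254 peak, as did every weaker isolated one named below. Those at Dpy19l2 and Sos2 also met an AM+CD peak. The share of all DMSO peaks that met a CD3254 peak was not computed. The AM580 peak nearest to the one in Sos2 also lay in the Sos2 span and was shared, so both lists had a peak in that gene.

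Weaker unshared DMSO peaks lay in Gm9495 (fold 9.89, 22 fragments) and Mbnl2, a splicing regulator (5.16, 11 fragments). Zfp143, an activator of snRNA genes, was 2.06 kb from one (7.74, 17 fragments), on its upstream side. B230307C23Rik was 6.44 kb away (6.80), Emid1 17.0 kb (5.41), and a pair of peaks lay 20.8 and 21.2 kb from Gm3558 (5.59 and 5.16). All 14 isolated DMSO peaks without AM580 had a partner in at least 1 of the other 3 lists, so 0 stood in the DMSO list alone. The share over all isolated DMSO peaks was also 0 of 113 (0%, 0 to 3.29), and over the whole DMSO list 1 of 286 peaks had no partner in those 3 lists. The strongest unshared DMSO peak of any class was in the satellite block of chromosome 9 (3004514 to 3004794), with a fold of 2.73 on 2930 fragments, and an AM580 peak stood 844 bp from it.

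How near the rule's edge peaks could fall is shown by Slc30a4. The AM580 peak there ran from 122682127 to 122682392 on chromosome 2 (fold 6.12, −log10 q 5.70) and the DMSO peak from 122681381 to 122682069 (fold 6.66, −log10 q 8.86). They stood 57 bp apart and so counted as unshared in both lists. The next nearest unshared AM580 peaks were the one at the start of chromosome 17, with its gap of 326 bp, and a contig peak at 375 bp. Just inside, the shared AM580 peaks of least overlap met DMSO by 190, 196 and 232 bp. In all, 4 unshared AM580 peaks were within 1 kb of a DMSO peak and 15 within 10 kb.

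Dense clusters held 21 unshared AM580 and 12 unshared DMSO peaks, often in the same cluster. The largest, on chromosome 8 (20275231 to 20682577) around Gm15319, Gm40469 and Gm21119, had 12 AM580 peaks, 4 of them shared, and 7 DMSO peaks, 4 of them shared. Its AM580 folds were 3.71 to 7.66. A cluster at 20049106 to 20154499 on that chromosome, with no protein-coding gene, had 3 AM580 and 2 DMSO peaks and 0 shared. The cluster around Speer4e on chromosome 5 (14914439 to 15054880) had 5 AM580 and 6 DMSO peaks, with 3 of each shared.

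Clusters with all peaks on one side were few. The 4 AM580 peaks around Duxf3, a double homeobox gene, on chromosome 10 (58221687 to 58239725) met 0 DMSO peaks, with folds of 3.54 to 6.09 and pileups of 17 to 38. All 4 met a CD3254 peak, as did 90.7% of all AM580 peaks, and the one from 58231857 also met an AM+CD peak. Near Apba2 on chromosome 7 (64475642 to 64489083) there were 2 DMSO peaks and 0 AM580 peaks. By contrast all 6 peaks of each list were shared on chromosome 2 around Gm14496 (181917359 to 182013201), and all 4 of each around Tmem267 on chromosome 13. These clusters were picked out after their values were seen. Speer and Dux genes belong to duplicated families, and the sources used here do not say how multiply mapping reads were handled.

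The 10 strongest isolated shared peaks near genes, chosen by AM580 rank, ranked 19 to 52 with AM580 and 19 to 92 with DMSO. Those at Zc3h7a and Cdk8 stood lowest with DMSO, at 83 and 92. Mdga2, a neural adhesion gene, led with a fold of 29.5 in AM580 (773 fragments) and 26.4 in DMSO (1128 fragments), its summits 10 bp apart. The Kctd16 span had 26.5 and 24.4, and that of Zc3h7a, an RNA-binding protein gene, 27.6 and 21.4. Cdk8, a kinase of the Mediator complex, held peaks of 23.3 with AM580 and 18.1 with DMSO, 38 bp apart. Smo, the Hedgehog pathway transducer, had 19.9 and 17.6 with summits 1 bp apart. Peaks 21.4 kb from Ly6c2, a surface antigen gene, had folds of 10.3 and 9.31. The other 4 of the 10 were at Gtpbp4, Pak3, Cldn34d and Atrnl1. They had AM580 folds of 27.5 to 36.8 and DMSO folds of 27.1 to 32.7.

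Few summits lay near one of the start sites used. These sites include none on chromosome 18 and none for some genes elsewhere, such as Tmem67 and Eppk1. A summit near a missing site counted as not near, so the shares below may be too low. On the main chromosomes 4 of 252 AM580 summits lay within 1000 bp of a start site (1.59%, 0.619 to 4.01), and 3 of 216 DMSO summits did (1.39%, 0.473 to 4.003). Besides Gm40237 and Gm40369 these were Asmt, the last enzyme of melatonin synthesis, in both lists at 792 and 746 bp, and a predicted locus at the start of chromosome 6 with AM580. Within 10000 bp lay 49 AM580 summits (19.4%, 15.03 to 24.8) and 37 DMSO summits (17.1%, 12.7 to 22.7). Of unshared AM580 summits 16 of 67 were that near (23.9%, 15.3 to 35.3), against 33 of 185 shared ones (17.8%, 13.0 to 24.0), so the intervals overlap.

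Known retinoid genes had no peak nearby in either list. Of 28 RAR target genes, which include the retinoid-degrading Cyp26a1 and the receptor gene Rarb, 0 were within 50 kb of an AM580 summit (0%, 0 to 12.1) or a DMSO summit. The background was 0.954% of 21900 protein-coding genes with AM580 and 0.808% with DMSO, so a count of 0 among 28 genes is near the background. The same count of 0 held for 23 genes of retinoid metabolism and transport, 30 receptors, partners and co-regulators, 24 Hox and related genes and 18 LXR and PPAR targets. Within 100 kb there was 1, Fgf8, a signalling gene, at 86.3 kb in both lists, beside a background of 1.63% with AM580 and 1.39% with DMSO.

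For genes of the pancreas the counts were also 0. Of 25 acinar enzyme genes, such as Cpa1 and Pnlip, 14 acinar transcription factor genes and 15 islet and duct genes, 0 were within 50 kb of a peak of either list. Over all lists the count was 0 of 160 genes (0%, 0 to 2.34), an interval that holds the background of 0.954% with AM580 and 0.808% with DMSO, so these counts set the lists apart from no other genes. The nearest of the enzymes was Cel, a lipase gene, at 372 kb from an AM580 and 371 kb from a DMSO summit. Prox1, a homeobox regulator of the pancreas, was 132 kb from an AM580 summit and 5071 kb from a DMSO summit. That AM580 peak was unshared and had the lowest −log10 q of its list, 1.56, on 12 fragments. Rxra, the gene of a partner of RARα, was 421 kb from a summit of each list.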

How the data were processed

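RARα CUT&RUN peaks of 1 AM580 and 1 DMSO list were compared. Per the submitters' processing notes the genome was mm10 and the tools MACS2 2.2.7.1, Bowtie2 2.5.1, bedtools, FastQC and SAMtools 1.18. The sources used here do not state order, control, q threshold or pooling. The deposited narrowPeak lists hold the authors' fold ratio over local background, their −log10 p and −log10 q, and a deposited score of 10 times the −log10 q, not used. Folds and −log10 q were ranked within a list and not compared between lists. Across lists, the coverage recovered from them is given as depth, and some alternatives applied 1 −log10 q limit to both.

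Overlaps were computed in Python 3.11.15 with pandas 2.3.3 and SciPy 1.17.1, and tested on simulated data. Pileup and background were recovered from fold and −log10 p by a search over whole-number pileups. All 609 gave back the −log10 p within a relative 0.0002. The lowest background was taken as coverage, the measure of depth. Joined regions of the 5 lists at gaps of at most 100 kb, in groups of at least 3, made dense clusters. The 8 high-signal windows and the gene lists came from general knowledge, and members and lists were chosen with earlier results of these data known. Genes and start sites came from RefSeq GRCm38.p6, the assembly mm10 names. Distances run from the summit. In a place with several spans the shortest was named, and 1 of 26 enzyme names was not in the table.

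By −log10 q within a list, named peaks were the first 20 isolated unshared AM580 and 15 DMSO peaks within 50 kb of a protein-coding gene (11 existed with DMSO), the first 5 unshared of any class, the first 10 isolated shared AM580 peaks, and those nearest the overlap threshold. Alternatives varied overlap, threshold, list length, class and distance. No p-value was computed.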

Additional observations from a re-analysis of the deposited data

How the results depend on the processing

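Of 57 alternatives, 31 left a share within its counting interval or a count within 1.5 times, and 26 did not. The shares of AM580 and of DMSO peaks that were shared became 70.6% and 79.7% with summits at most 200 bp apart, 81.4% and 92.0% with gaps of up to 10000 bp, 71.5% and 77.3% against a list kept at −log10 q of 10, and 91.5% and 92.0% with 200 peaks in each. The AM580 share alone moved to 82.4% and 88.8% with both lists at 5 or 10 and over, to 83.6% in lists of equal length and to 70.7% for isolated peaks. The DMSO share moved to 83.6% with 50% overlap. Unshared AM580 peaks numbered 27 at 10 or more, 17 with 200 peaks each, 47 in lists of equal length and 41 isolated. Unshared DMSO peaks numbered 58 by summits, 65 against the list kept at 10, 16 with 200 each and 14 isolated. These alternatives kept fewer peaks or used another definition of shared, and what moved the values was not tested. AM580 summits in a protein-coding span were 26.6% (67 of 252), 38.5% within 10000 bp, 39.7% for any gene and 37.9% for isolated peaks. The share of isolated AM580 peaks that were shared was 84.6% at 10 or more, and list genes near a peak numbered 1 within 100 kb. Summits of 8 to 25 fragments, as at most unshared AM580 peaks, limit what the lists can show, and a peak that is absent was only not listed. No paired analysis was possible because each treatment has 1 list, and for the same reason no replicate could be left out.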
